A study of Gallus gallus with 4 samples.

Results

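Ion channels and the receptors for neurotransmitters were followed through the RNA of whole chick embryos that had been exposed to thalidomide, to a nitric oxide donor, or to both. Members were taken by gene symbol: the potassium channel genes (KCN with a further letter), the sodium channel genes (SCN), the calcium channel genes (CACNA, CACNB, CACNG), and the receptors for GABA (GABR), glutamate (GRIA, GRID, GRIK, GRIN, GRM), acetylcholine (CHRN, CHRM), serotonin (HTR) and glycine (GLR). Of the 13081 genes of the table, 158 carried such a symbol and 157 of them had at least 20 reads summed over the 4 libraries. SCNN1D, with 22 reads, was just inside this minimum, and KCNE1, with 10 reads, was outside it. The pattern also took 7 genes that encode no channel or receptor subunit: the glutaredoxins GLRX2, GLRX3 and GLRX5, the secreted serine proteases HTRA1 and HTRA3, a synaptic scaffold protein and the channel regulator KCNRG. The other 150 members encode subunits. The symbols CHRNA10 and HTR7 each stood on 2 rows with different gene identifiers, which were kept apart.

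The embryos were Gallus gallus, the domestic chicken. They received their treatment at Hamburger-Hamilton stage 8, when the neural folds are closing, and were collected whole on day 6 of incubation. The control embryos received the vehicle DMSO, a second condition received thalidomide at 40 µg/ml, another received spermine NONOate at 10 µM, and the last, called the combination here, received both agents at these doses. Thalidomide is a teratogen known for its effects on limbs and blood vessels, and spermine NONOate releases nitric oxide in solution. Each condition is 1 RNA-seq library, so no difference below has a replicate check and no p-value was computed; the sources used here give neither the number of embryos behind a library nor their sex.

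Voltage-gated sodium and calcium channels carry the inward currents that drive action potentials and transmitter release, and potassium channels set the resting potential and end the action potential. Most are built from a pore-forming subunit and smaller auxiliary subunits that change its gating or its delivery to the membrane. Ionotropic receptors for glutamate and acetylcholine excite the cell that carries them, while those for GABA and glycine inhibit mature neurons and often depolarise embryonic ones. Many of these genes serve heart, muscle, kidney and sensory epithelia as well as neurons, so a whole embryo sums over many tissues, and in such bulk RNA fewer cells of a type and less RNA per cell cannot be told apart.

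Library totals ran from 62576258 to 79359076 reads assigned to genes. Between 12859 and 12934 genes had a read in each library, and no member was at 0 in any of them. The median member had 309, 405, 296 and 472 reads in the control, thalidomide, spermine NONOate and combination libraries; values below keep this order throughout. Levels are given in CPM, the usual depth-scaled unit of RNA-seq, with library sizes adjusted by the trimmed mean of M-values (TMM). CPM is not divided by transcript length, so a level is compared between libraries and not between genes. A member is called higher or lower where the ratio of scaled reads, with 0.5 reads added to each count, was at least 2-fold, the higher library had at least 20 reads, and the 95% exact conditional-binomial interval of the ratio left out 1. These intervals, printed in log2 units, cover counting error only and not the differences between embryos.

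Summed over the 150 subunits, the level was 1110, 1396, 1365 and 1635 CPM, lowest in the control library and highest in the combination. With thalidomide against control, 34 of 151 members compared were higher (22.5%) and 15 were lower (9.93%), where 9.22% of all genes were called higher and 7.23% lower. The median log2 ratio was 0.39 for the members and -0.01 for all genes. The same contrast on a background of the donor, the combination against spermine NONOate, gave 26 of 150 members higher (17.3%, all genes 9.84%) and 8 lower (5.33%, all genes 6.03%), with medians of 0.18 and 0.01. Spermine NONOate against control gave 14 of 148 members higher (9.46%, all genes 4.33%) and 4 lower (2.7%, all genes 1.33%), with medians of 0.20 and -0.05. The combination against thalidomide gave 8 of 150 members higher (5.33%, all genes 3.74%) and 0 lower (all genes 1.26%), with medians of 0.18 and 0.00. Against control, the combination had 38 of 151 members higher (25.2%, all genes 10.1%) and 6 lower (3.97%, all genes 4.16%). These shares of all genes are also the background for the counts by family and by list below.

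**Figure D1:**
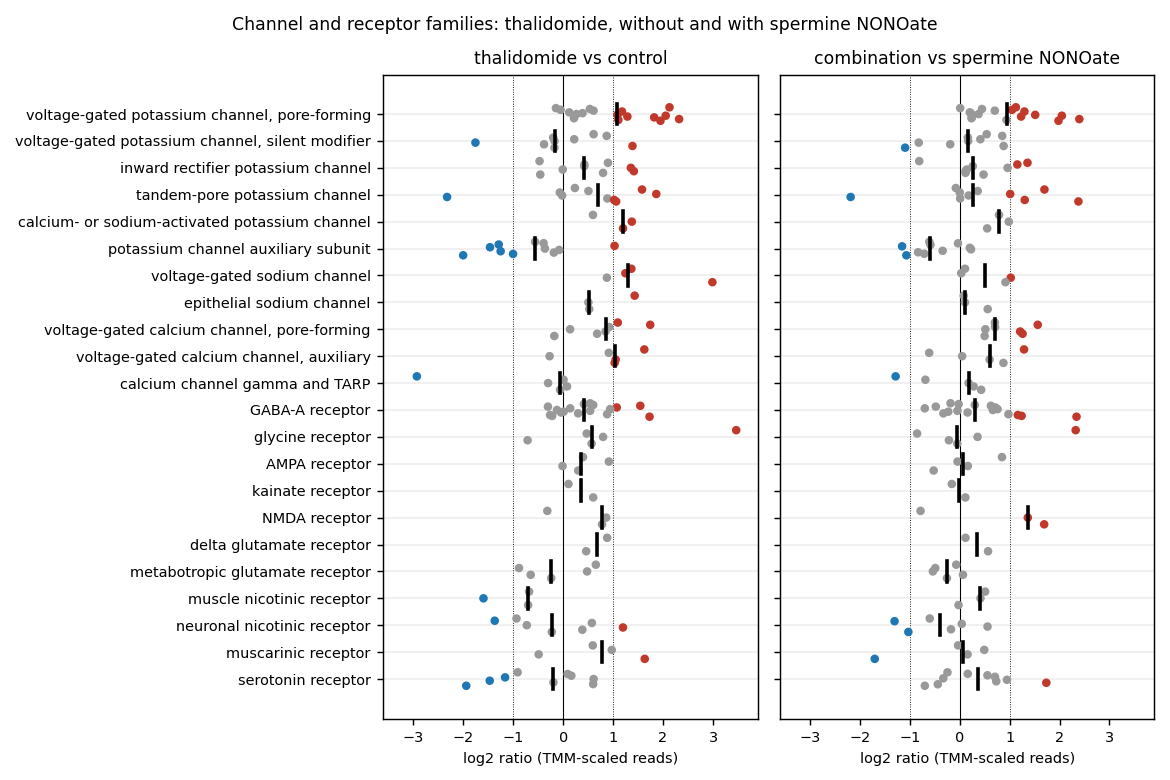
Log2 ratio of each channel or receptor subunit (points) by family, for thalidomide against control (left) and the combination against spermine NONOate (right). Red points were called higher, blue points lower and grey points neither. Black bars are family medians and dotted lines mark 2-fold. The 17 pore-forming voltage-gated potassium channels have medians of 1.08 and 0.94, and the 11 potassium auxiliary subunits (10 on the right) have medians of -0.56 and -0.60.

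With libraries scaled by their total reads, the median gene moved up by 0.20 log2 units in thalidomide against control and by 0.16 in the combination against spermine NONOate. The share of calls that were higher then went from 56% to 74.9% over all genes and from 69.4% to 79.7% over the members in the first comparison, and from 62% to 77.7% and from 76.5% to 90% in the second. For the combination against control the median gene moved by 0.22, and the share went from 70.8% to 87.7% over all genes and from 86.4% to 93.1% over the members. The ratios below are therefore relative to the median gene, and counts of ratios above 1 hold for TMM scaling: a log2 ratio within 0.22 of 0 can change side under another scaling.

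Genes outside the channels that were listed for long and for short mRNAs lay on opposite sides in both thalidomide comparisons. These lists were chosen with earlier results of these data known, and no mRNA length was measured. In these and all lists below, a gene was counted as found only with at least 20 reads summed over the 4 libraries. For very long mRNAs, such as those of giant structural proteins, 29 of 41 listed genes were found. Of these 29, 16 were called higher and 0 lower with thalidomide against control (median 1.04), and 18 and 0 in the combination against spermine NONOate (median 1.08). Of 25 genes found of 42 listed for short mRNAs, 0 were higher and 3 lower in the first comparison (median -0.55), and 0 and 8 in the second (median -0.90). In the donor comparisons, the long mRNAs had medians of -0.24 against control and -0.04 in the combination against thalidomide, and the short mRNAs 0.03 and -0.17. The part of mRNA length in the members' thalidomide ratios was not tested.

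Among the pore-forming voltage-gated potassium channels, 9 of 17 members were called higher with thalidomide against control (all genes 9.22%) and 0 lower (all genes 7.23%). A ratio above 1 was found for 15 of 17. The combination against spermine NONOate gave 8 higher (all genes 9.84%) and 0 lower (all genes 6.03%), and 17 of 17 had a ratio above 1. KCNQ3 and KCNQ5 encode subunits of the M current, a slow potassium current that restrains repetitive firing of neurons. KCNQ5 stood at 1.45, 5.63, 1.396 and 5.53 CPM, so that both libraries with thalidomide were above both without it. Its log2 ratio was 1.95 (95% interval 1.64 to 2.28) with thalidomide against control and 1.98 (1.65 to 2.34) in the combination against spermine NONOate. KCNQ3 stood at 5.71, 12.3, 7.20 and 13.8 CPM, with log2 ratios of 1.10, called higher, and 0.94, short of 2-fold. KCNQ1, the family member of heart and epithelia, stood at 2.55, 2.96, 2.36 and 2.78 CPM and was called in no comparison.

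The ether-a-go-go family of potassium channels gave a like order of libraries. KCNH5, expressed in brain, stood at 2.44, 10.2, 2.23 and 9.23 CPM, with log2 ratios of 2.05 (1.82 to 2.30) and 2.05 (1.78 to 2.33) in the 2 thalidomide comparisons. KCNH7, an erg-type channel, stood at 4.65, 11.3, 3.71 and 8.71 CPM and was called higher in both, by 1.28 and 1.23. KCNH1, the founding ether-a-go-go homologue, stood at 0.933, 1.98, 0.748 and 2.15 CPM and was also called higher in both, by 1.08 and 1.51. In all of these the donor alone left the level close to control, with log2 ratios between -0.33 for KCNH7 and -0.13 for KCNH5. KCNH8 differed, since its control library was the lowest of the 4: it had 9, 32, 26 and 40 reads, with log2 ratios against control of 1.82 for thalidomide and 1.76 for spermine NONOate, both called higher.

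The delayed rectifier KCNB2 stood at 3.02, 6.83, 3.14 and 7.73 CPM, and was called higher in both thalidomide comparisons, by 1.18 and 1.30 log2 units. KCNA1, a channel of axons, had 32, 137, 37 and 105 reads and was called higher by 2.13 and 1.13. KCNA6 stood at 4.49, 4.32, 2.34 and 4.86 CPM, lowest with the donor alone, and its only call was higher in the combination against spermine NONOate (1.05). KCNC2, a channel of fast-spiking neurons and the second of this family by reads, stood at 8.28, 10.8, 10.7 and 12.5 CPM, and it was called in no comparison. KCNA4, KCNA5, KCNC1 and KCND2 likewise had no call, and their log2 ratios in the 2 thalidomide comparisons lay between -0.15 and 0.53.

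The silent modifiers (KCNF, KCNG, KCNS and KCNV) form no channel alone but join and modify KCNB channels. KCNS1 stood at 7.64, 2.25, 10.8 and 6.15 CPM. It was lowest in the thalidomide library, called lower there against control by a log2 ratio of -1.76 and higher in the combination against thalidomide by 1.44. KCNS3 stood at 1.22, 3.20, 2.23 and 4.11 CPM and was called higher with thalidomide (1.39) and in the combination against control (1.746). KCNV1 stood at 2.58, 2.28, 4.70 and 2.20 CPM, highest with the donor alone, and was called lower in the combination against spermine NONOate (-1.09). KCNS2, with the most reads of the group, stood at 20.2, 15.5, 22.7 and 19.9 CPM with no call, and neither KCNF1 nor any of the 4 KCNG members was called.

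Auxiliary subunits of potassium channels lay on the other side. With thalidomide against control 5 of 11 were called lower (all genes 7.23%) and 1 higher (all genes 9.22%), KCNE2 with 18, 36, 28 and 24 reads. The other 10 had a ratio below 1 under TMM scaling. In the combination against spermine NONOate 2 of 10 were lower (all genes 6.03%) and 0 higher (all genes 9.84%). KCNMB4, the brain-type beta subunit of the large-conductance calcium-activated channel, stood at 12.4, 3.08, 11.2 and 5.33 CPM. Both libraries with thalidomide were below both without it, with log2 ratios of -2.00 and -1.07. KCNE3, a single-span subunit that keeps KCNQ1 open in epithelia, stood at 2.17, 0.779, 1.81 and 0.812 CPM and was called lower by -1.47 and -1.15. KCNIP2, a calcium-binding partner of KCND channels, stood at 4.40, 1.84, 4.60 and 3.63 CPM, with a call of lower with thalidomide against control (-1.25) and a value of -0.34 for the combination against spermine NONOate. KCNMB2, another beta subunit, stood at 3.31, 1.64, 3.31 and 2.02 CPM, called lower by -1.004 in the first comparison and at -0.71 in the second. The fifth, KCNE1L, had 21, 8, 5 and 9 reads. KCNAB1 and KCNAB2, the beta subunits with the most reads, were called in no comparison: KCNAB1 stood at 75.6, 51.2, 105 and 68.7 CPM and KCNAB2 at 51.5, 39.3, 52.7 and 51.5 CPM. The pore-forming partner of the KCNMB subunits, KCNMA1, stood at 18.5, 27.9, 16.2 and 28.1 CPM, higher in both libraries with thalidomide but short of 2-fold (0.60 and 0.79).

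KCNT1 and KCNT2 encode potassium channels opened by intracellular sodium. KCNT1 stood at 7.06, 18.3, 11.5 and 22.8 CPM, called higher with thalidomide (1.37) and in the combination against control (1.69). KCNT2 stood at 13.8, 31.6, 18.3 and 26.8 CPM and was called higher with thalidomide (1.20). In both genes the control was the lowest library and the donor alone came next.

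Of the 10 tandem-pore channels, which carry the background potassium current at rest, 4 were called higher and 1 lower in each thalidomide comparison. KCNK10, a channel sensitive to stretch and lipids, stood at 3.70, 11.1, 3.76 and 12.2 CPM, with log2 ratios of 1.58 and 1.70. KCNK5, an acid-sensitive channel of kidney and other epithelia, stood at 7.06, 14.3, 6.10 and 15.1 CPM, with ratios of 1.02 and 1.30. KCNK9 had 28, 57, 13 and 90 reads and KCNK16 had 11, 40, 22 and 58 reads, both also called higher in both comparisons. KCNK18, a channel of sensory neurons, went the other way with 28, 5, 40 and 11 reads, and was called lower by -2.33 and -2.18. KCNK1, with the most reads in this family, stood at 17.6, 20.7, 18.9 and 17.9 CPM and had no call.

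Of 9 inward rectifiers, 2 were called higher with thalidomide against control, 2 in the combination against spermine NONOate and 4 in the combination against control, with 0 lower in each. KCNJ16, a subunit of kidney and glia, stood at 2.58, 6.61, 4.92 and 9.57 CPM, called higher with thalidomide (1.35) and in the combination against control (1.89). KCNJ12, of heart and muscle, had 62, 112, 55 and 183 reads and was called higher in the combination against spermine NONOate (1.36) and against control (1.46). KCNJ8, the pore of the ATP-sensitive channel of blood vessels and the inward rectifier with the most reads, stood at 21.1, 15.3, 16.4 and 22.8 CPM with no call. KCNJ15 stood at 5.36, 7.19, 5.73 and 6.88 CPM and KCNJ11, the ATP-sensitive pore of pancreatic beta cells, at 2.66, 1.91, 3.96 and 2.25 CPM, also with no call.

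**Figure D2:**
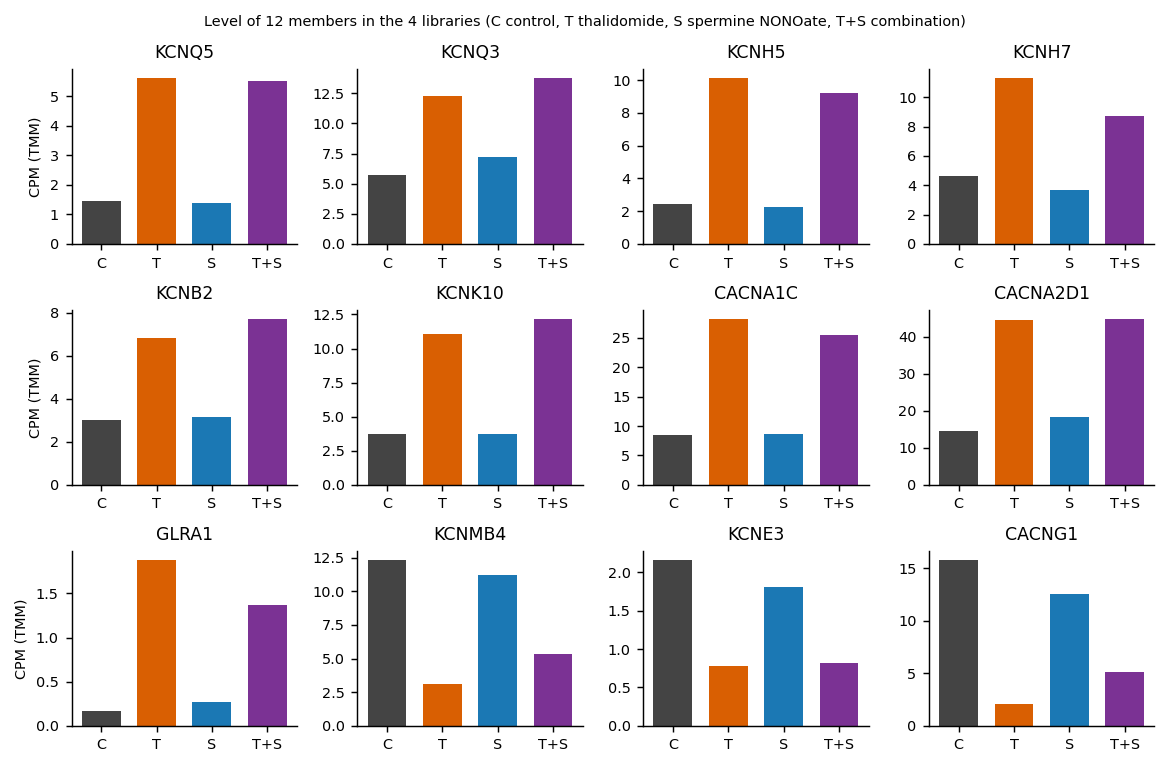
Level (CPM, TMM-scaled, axes from 0) of 12 members in the control (C), thalidomide (T), spermine NONOate (S) and combination (T+S) libraries, 1 library per bar. KCNQ5 runs from 1.396 to 5.63 CPM and is high in both libraries with thalidomide, as are 8 further members, while KCNMB4, KCNE3 and CACNG1 are low in both.

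All 4 voltage-gated sodium channel genes with a row had their lowest level in the control library. SCN1A and SCN2A encode the main pore subunits of brain neurons. SCN1A stood at 6.50, 16.8, 16.9 and 18.3 CPM, with log2 ratios against control of 1.36 (thalidomide), 1.38 (spermine NONOate) and 1.49 (combination), all called higher. The combination lay 0.12 above thalidomide alone and 0.11 above spermine NONOate alone. SCN2A stood at 13.3, 31.6, 26.3 and 26.8 CPM, with log2 ratios against control of 1.25, 0.98 and 1.01, of which the value with spermine NONOate was short of 2-fold. SCN9A, the sodium channel of pain-sensing neurons, had 78, 602, 164 and 400 reads, or 1.07, 8.53, 2.73 and 5.16 CPM. It was highest with thalidomide alone (log2 ratio 2.99, interval 2.65 to 3.35) and was called higher against control in each treated library, by 1.34 with spermine NONOate and 2.26 in the combination.

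The epithelial sodium channel, built from SCNN1 subunits, takes up sodium in kidney and lung. SCNN1A stood at 4.33, 11.7, 6.75 and 7.14 CPM, highest with thalidomide alone, where it was called higher against control (1.43). Its partners SCNN1B, at 4.86, 6.89, 5.72 and 6.16 CPM, and SCNN1G, at 4.22, 6.07, 4.17 and 6.16 CPM, were called in no comparison. SCNN1D had too few reads (8, 1, 5 and 8) to be compared. The minimum of 20 reads for listed genes partly fixes in advance that no marker, here or below, was at 0. Kidney markers, 9 found of 13 listed and none at 0 in any library, had a summed level of 69.7, 261, 186 and 288 CPM, lowest in the control. Of these 9, 7 were called higher and 0 lower with thalidomide against control (median 1.94), and 6 and 0 with spermine NONOate against control (median 1.40). For the combination, 3 were higher and 1 lower against spermine NONOate (median 0.61), and 1 and 0 against thalidomide (median 0.07). The part of kidney content in the ratios of SCNN1A, KCNJ16 and KCNK5 was not tested.

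Among the pore-forming calcium channels CACNA1C, the L-type channel of heart, smooth muscle and neurons, had the largest ratio of the 7 with thalidomide against control. It stood at 8.45, 28.3, 8.62 and 25.5 CPM, so that both libraries with thalidomide were over 2-fold above both without it. The log2 ratios were 1.74 (1.61 to 1.88) and 1.56 (1.42 to 1.71) in the 2 thalidomide comparisons, 0.03 for spermine NONOate against control and -0.15 for the combination against thalidomide. Smooth muscle markers, 8 found of 12 listed and none at 0, had a summed level of 1205, 1829, 492.5 and 1285 CPM. Of these 8, 0 were higher and 1 lower with thalidomide against control (median 0.43), 5 and 0 in the combination against spermine NONOate (median 1.54), and 0 and 4 with spermine NONOate against control (median -1.07). Heart markers, 15 found of 20 and none at 0, summed to 1968, 1095, 1545 and 1122 CPM, with 2 higher and 2 lower in the first of these comparisons and 0 and 1 in the second. The part of either tissue in the ratios of CACNA1C was not tested. CACNA1D, the other L-type gene with many reads, stood at 25.8, 48.8, 27.8 and 45.4 CPM in the same order of libraries, short of 2-fold at 0.92 and 0.71. The T-type genes CACNA1G and CACNA1H open near the resting potential and serve pacemaking. CACNA1G stood at 41.8, 75.3, 38.5 and 89.3 CPM and CACNA1H at 24.7, 39.6, 21.6 and 51.6 CPM. Both were called higher in the combination against spermine NONOate (1.21 and 1.26) and against control (1.09 and 1.06), and stayed under 2-fold with thalidomide alone (0.85 and 0.68). CACNA1B, the N-type channel of synaptic terminals, stood at 11.6, 24.6, 19.99 and 32.6 CPM, called higher with thalidomide (1.09) and in the combination against control (1.497). CACNA1E, at 24.2, 26.7, 32.7 and 46.7 CPM, and CACNA1I, at 3.02, 2.67, 2.98 and 4.21 CPM, had no call.

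The alpha-2-delta and beta subunits carry calcium channels to the membrane. CACNA2D1, the target of gabapentin, stood at 14.5, 44.7, 18.4 and 44.9 CPM. It was called higher in both thalidomide comparisons, by 1.62 and 1.29, and the 2 libraries with thalidomide differed from each other by 0.01. CACNB2 stood at 6.82, 14.1, 7.79 and 11.8 CPM and CACNB4 at 6.69, 13.7, 6.66 and 12.2 CPM, both called higher with thalidomide against control (1.05 and 1.03) and short of 2-fold in the combination against spermine NONOate (0.60 and 0.88). CACNA2D3 stood at 7.76, 14.6, 16.9 and 11.1 CPM, highest with the donor alone, where it was called higher against control (1.13).

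CACNG1, the gamma subunit of the skeletal muscle calcium channel, had the lowest ratio of all 151 members compared with thalidomide against control. It stood at 15.8, 2.07, 12.6 and 5.16 CPM, with log2 ratios of -2.93 (-3.19 to -2.69) there and -1.28 (-1.46 to -1.11) for the combination against spermine NONOate. The combination lay above thalidomide alone by 1.31, a call of higher, and below control by -1.62, a call of lower. CACNG2, CACNG3, CACNG4 and CACNG5, whose products escort AMPA receptors in neurons, had no call in any comparison. CACNG4, with the most reads, stood at 10.1, 10.7, 13.3 and 16.1 CPM, and CACNG5 at 9.37, 8.97, 7.33 and 9.88 CPM.

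Muscle subunits of the nicotinic receptor, which receives motor nerve input, were also low in the thalidomide library, though not there alone. Under TMM scaling all 3 had a ratio below 1 with thalidomide against control (median -0.70). The same held with spermine NONOate against control (median -0.67), where none was called. In the combination against spermine NONOate 2 of 3 had a ratio above 1 (median 0.42), without a call. CHRND stood at 8.46, 2.79, 4.55 and 6.08 CPM, called lower with thalidomide (-1.60) and higher in the combination against thalidomide (1.12). CHRNA1 stood at 28.9, 18.01, 18.2 and 25.9 CPM and CHRNG at 4.46, 2.73, 3.94 and 3.88 CPM, with log2 ratios of -0.68 and -0.70 with thalidomide against control and no call. Of 15 skeletal muscle markers found of 24 listed, 7 were called lower and 0 higher with thalidomide (median -0.85), and 2 lower in the combination against spermine NONOate (median -0.22). Between the combination and thalidomide, 0 of the 15 were called and 14 had a ratio above 1 (median 0.60). Their summed level was 1220, 588, 987 and 814 CPM, and none was at 0 in any library. The part of muscle content in the ratios of CACNG1, CHRND, CHRNA1 and CHRNG was not tested.

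GABA-A receptors, the main inhibitory receptors of the brain, were represented by 19 members. With thalidomide against control, 3 of 17 compared were called higher and 0 lower; in the combination against spermine NONOate also 3 of 17 and 0. GABRB2 stood at 4.29, 9.03, 5.68 and 9.33 CPM, called higher with thalidomide (1.07) and in the combination against control (1.12). GABRA4 had 44, 125, 55 and 110 reads and was called higher with thalidomide by 1.54. GABRR3, a rho subunit, had 14, 46, 8 and 55 reads and was called higher in both thalidomide comparisons. The rho subunit GABRR2, best known from the retina, stood at 4.91, 4.21, 3.84 and 9.09 CPM. Its combination library alone was high, with calls of higher against spermine NONOate (1.24) and against thalidomide (1.11). GABRB4, a subunit described in birds, stood at 2.14, 4.11, 4.07 and 6.89 CPM: it was similar with either agent and highest with both, called higher in the combination against control (1.68). GABRA3, with the most reads of the family, stood at 19.02, 28.9, 29.5 and 36.5 CPM in the same arrangement but without a call.

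Glycine receptors inhibit neurons of the spinal cord and brainstem. GLRA1, the adult-type alpha subunit, had 12, 133, 16 and 106 reads, or 0.165, 1.89, 0.266 and 1.37 CPM. Both libraries with thalidomide stood above both without it, with log2 ratios of 3.46 (2.67 to 4.51) and 2.32 (1.60 to 3.22). GLRA2, the alpha subunit of embryonic neurons, had another order of libraries. It stood at 1.56, 2.17, 4.94 and 2.73 CPM, highest with spermine NONOate alone (1.65 against control, called higher). The combination lay 0.33 above thalidomide alone, without a call. GLRB, the anchoring beta subunit, stood at 7.31, 10.8, 12.2 and 11.8 CPM, and GLRA4 at 10.0, 6.09, 8.84 and 7.62 CPM, both without a call.

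Glutamate receptors carry most excitatory transmission in the brain. None of the 16 members was called with thalidomide against control, where 11 of 16 had a ratio above 1 (median 0.43). With spermine NONOate against control, 5 of 16 were called higher (all genes 4.33%) and 0 lower (all genes 1.33%). A ratio above 1 was found there for 15 of 16 (median 0.73, all genes -0.05). With thalidomide in both libraries, the combination against thalidomide had 2 called higher and 16 of 16 had a ratio above 1 (median 0.49, all genes 0.00). In the combination against spermine NONOate 2 were called higher and 8 of 16 had a ratio above 1 (median 0.01).

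**Figure D3:**
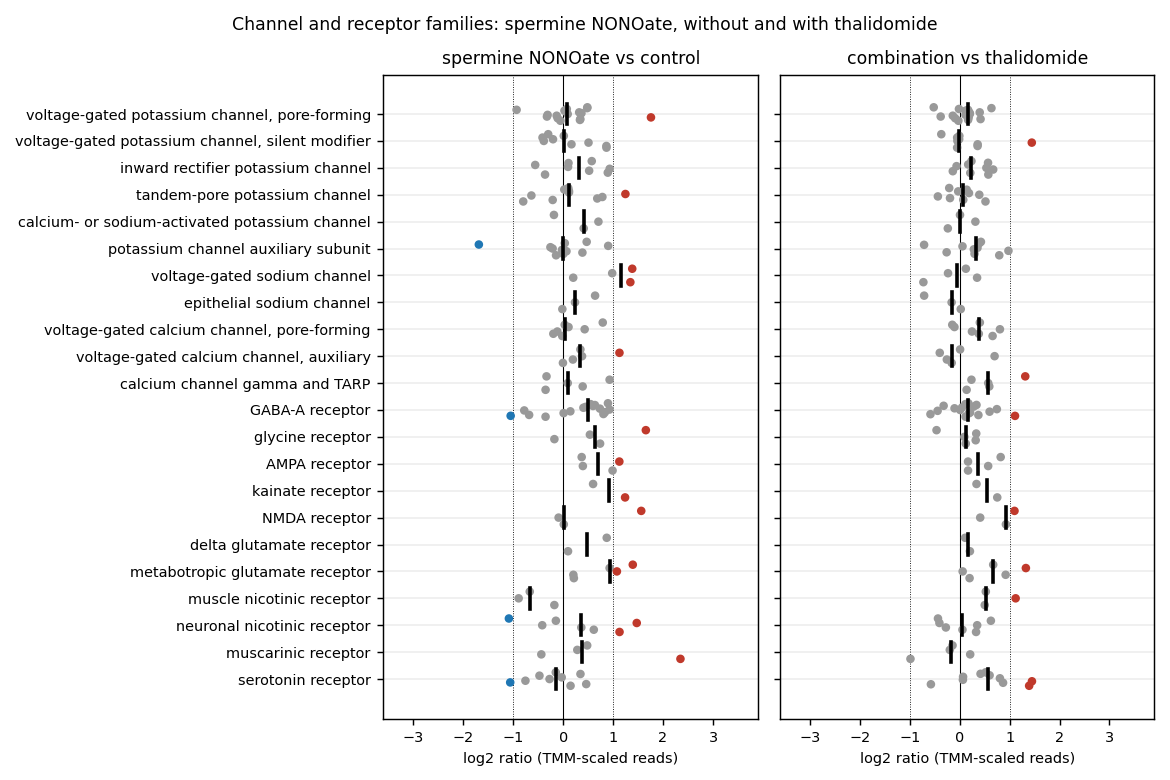
Log2 ratio of each channel or receptor subunit (points) by family, for spermine NONOate against control (left) and the combination against thalidomide (right), with colours, bars and lines as in the plot of the thalidomide comparisons. Calls are fewer than in the thalidomide comparisons, and 5 of the 14 members called higher on the left are glutamate receptor genes.

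GRIN1, the obligatory subunit of every NMDA receptor, stood at 9.60, 7.70, 28.4 and 16.5 CPM. It was the only member called higher in both donor comparisons, by 1.56 (1.44 to 1.69) against control and 1.10 (0.95 to 1.25) in the combination against thalidomide. Its thalidomide ratios were below 1, at -0.32 and -0.78 log2 units. The glutamate-binding NMDA subunits ordered the libraries differently. GRIN2B, the form that predominates in embryos, stood at 7.49, 12.8, 7.54 and 24.4 CPM, highest in the combination. It was called higher there against spermine NONOate (1.69) and against control (1.70), with 0.93 against thalidomide and 0.01 for spermine NONOate against control. GRIN2A stood at 3.63, 6.61, 3.41 and 8.79 CPM, called higher in the combination against spermine NONOate (1.36) and against control (1.27).

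AMPA receptors carry fast excitatory transmission. GRIA2, the subunit that makes them tight to calcium, stood at 21, 39.6, 45.8 and 44.5 CPM, with the control lowest and the 3 treated libraries close together. It was called higher with spermine NONOate (1.12) and in the combination (1.08) against control, and reached 0.91 with thalidomide. GRIA1 stood at 18.4, 24.2, 23.8 and 42.8 CPM, highest in the combination (1.22 against control, called higher). GRIA3, at 25.5, 25.2, 33.5 and 37.5 CPM, and GRIA4, at 7.23, 8.90, 14.3 and 10.0 CPM, had no call, with 0.39 and 0.99 for spermine NONOate against control.

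The kainate receptor gene GRIK2 stood at 3.79, 5.74, 8.94 and 9.68 CPM, called higher with spermine NONOate (1.24) and in the combination (1.35) against control. GRIK1, with more reads, stood at 38.1, 41.0, 57.6 and 51.7 CPM without a call. The delta receptor gene GRID1, at 6.08, 11.2, 11.1 and 12.1 CPM, had no call. Of the metabotropic receptors, which act through G proteins, GRM3 stood at 12.8, 17.8, 26.9 and 18.5 CPM. It was highest with the donor alone and was called higher there against control, by 1.07. GRM7, a receptor of synaptic terminals, stood at 15.03, 9.57, 17.3 and 18.1 CPM, lowest with thalidomide alone and without a call.

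The plot of 12 members by library shows these glutamate receptors beside the sodium channels and the nicotinic pair that follows.

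**Figure D4:**
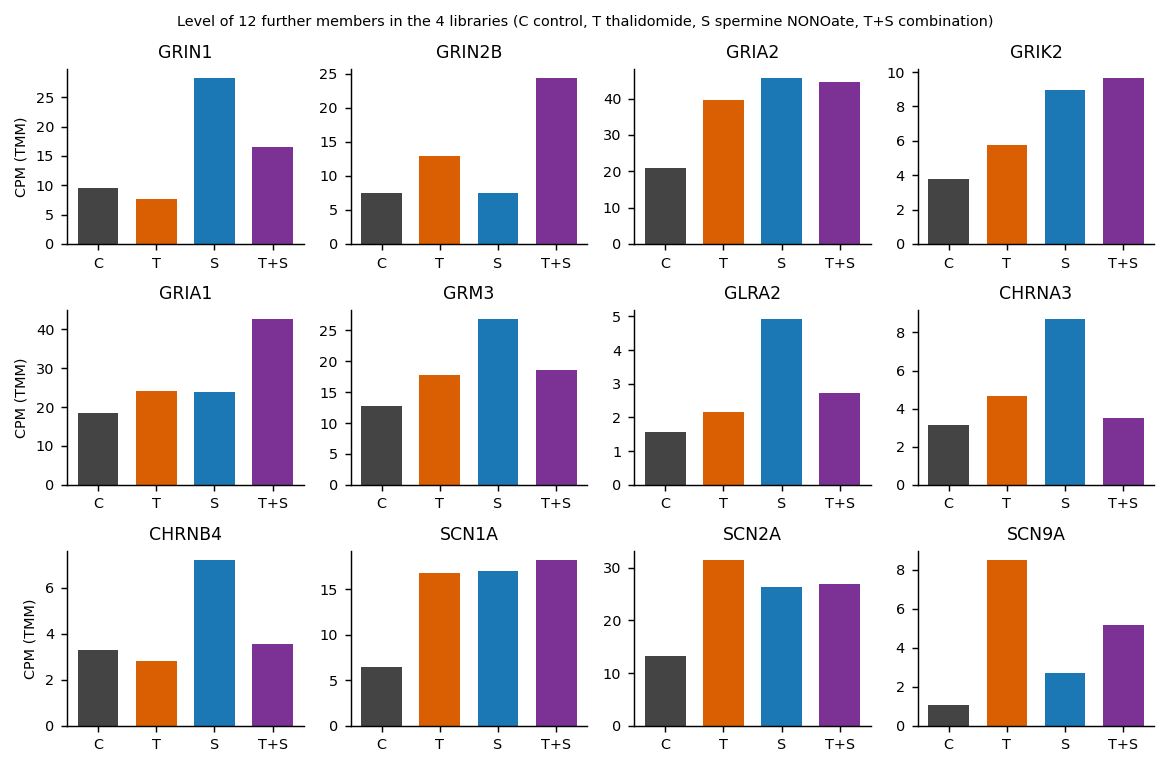
Level (CPM, TMM-scaled, axes from 0) of 12 further members in the control (C), thalidomide (T), spermine NONOate (S) and combination (T+S) libraries, 1 library per bar. GRIN1 is highest with spermine NONOate alone (28.4 CPM), GRIN2B in the combination (24.4 CPM) and SCN9A with thalidomide alone (8.53 CPM), while SCN1A and GRIA2 are lowest in the control and close together in the 3 treated libraries.

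Ganglion-type nicotinic receptors combine CHRNA3 and CHRNB4. CHRNA3 stood at 3.14, 4.68, 8.72 and 3.53 CPM and CHRNB4 at 3.31, 2.82, 7.23 and 3.54 CPM, both highest with the donor alone. Each was called higher with spermine NONOate against control (1.47 and 1.13) and lower in the combination against spermine NONOate (-1.30 and -1.03). The remaining gene of this cluster on chromosome 10, CHRNA5, stood at 5.45, 12.5, 6.997 and 10.3 CPM, high in both libraries with thalidomide and called higher with thalidomide against control (1.20). CHRNA4 and CHRNA7, the brain subunits with the most reads, stood at 36.2, 21.8, 27.0 and 27.8 CPM and at 12.9, 16.8, 19.7 and 17.5 CPM, without a call. CHRNA2 stood at 2.47, 0.950, 2.23 and 1.47 CPM and was called lower with thalidomide (-1.37). The hair cell subunits were near the limit of counting, with 15, 14, 10 and 6 reads for CHRNA9, and 42, 21, 16 and 17 reads for ENSGALG00000022702 and 14, 9, 4 and 4 for ENSGALG00000013581, the rows that share the symbol CHRNA10. The first of these CHRNA10 rows was called lower against control with spermine NONOate (-1.09) and in the combination (-1.37).

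Muscarinic receptors signal through G proteins in heart, gut and brain. CHRM4 stood at 13.5, 9.60, 9.96 and 11.1 CPM, CHRM3 at 4.09, 8.02, 4.97 and 6.998 CPM and CHRM2, the cardiac form, at 2.54, 3.83, 3.54 and 3.47 CPM, all without a call. CHRM5, a receptor of midbrain dopamine neurons, had 7, 22, 31 and 12 reads. It was called higher against control with thalidomide (1.63) and with spermine NONOate (2.35), and lower in the combination against spermine NONOate (-1.70).

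Serotonin receptors gave 3 calls of lower (all genes 7.23%) and 0 of higher (all genes 9.22%) among 9 members compared with thalidomide against control. HTR2C stood at 1.85, 0.822, 1.81 and 1.44 CPM and was called lower by -1.16. HTR7 on chromosome 4 had 69, 17, 63 and 50 reads and was called lower by -1.94, while the HTR7 row on chromosome 6 stood at 6.06, 9.18, 8.34 and 6.16 CPM without a call. HTR5A, the other call, had 21, 7, 10 and 22 reads. HTR1B, an autoreceptor of serotonin terminals and the member of this group with the most reads, stood at 34.1, 18.1, 30.8 and 25.9 CPM, with -0.91 against control. In the combination against thalidomide, HTR5A and the chromosome 4 HTR7 row were called higher, and 9 of 10 serotonin receptor members had a ratio above 1.

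Among the 7 genes that are no subunits, HTRA1 stood at 61.5, 18.5, 54.1 and 32.3 CPM and HTRA3 at 39.9, 15.2, 38.8 and 27.1 CPM. They gave 2 of the 15 calls of lower with thalidomide against control (-1.74 and -1.39), and without them 13 of 144 subunits were lower. The other members of this group had no call.

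Markers of neurons were read beside these values. Of 27 listed, 17 were found and none was at 0 in any library; their summed level was 2266, 2062, 3241 and 2471 CPM, highest with spermine NONOate alone. With spermine NONOate against control 2 of 17 were called higher and 0 lower, and 16 of 17 had a ratio above 1 (median 0.58). Between the combination and thalidomide 0 were called and 16 had a ratio above 1 (median 0.29). The median of the 16 glutamate receptor members was 0.73 in the first of these and 0.49 in the second. With thalidomide against control the neuron markers had a median of 0.01, with 2 called higher and 0 lower. In the combination against spermine NONOate their median was -0.37, with 2 higher and 3 lower. The pore-forming voltage-gated potassium channels had a median of 0.94 in that comparison. The part of neuron content in the members' ratios was not tested, for the donor or for thalidomide.

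Other genes of the synapse were read from lists. Of 16 synaptic vesicle genes, 3 were higher and 2 lower with thalidomide against control (median 0.32), and none was called with spermine NONOate against control (median 0.35). Of 23 postsynaptic scaffold and adhesion genes, 1 was higher and 1 lower with thalidomide (median 0.21), and none was called with spermine NONOate (median 0.02). Among genes of transmitter synthesis and transport, 9 of 25 were higher and 1 lower with thalidomide (median 0.76), and 6 of 24 were higher and 1 lower with spermine NONOate (median 0.41). Of 52 further channel and receptor genes whose symbols fall outside the pattern, 11 were higher and 2 lower with thalidomide (median 0.44), and 1 was higher and 0 lower with spermine NONOate (median 0.20).

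Markers of further tissues also differed between the libraries, with none at 0. Retina and lens markers, 9 found, summed to 3914, 702.4, 2191 and 1510 CPM, with 7 lower and 0 higher with thalidomide against control. Inner ear markers, 5 found, summed to 20.4, 62.8, 30.1 and 54.5 CPM, with 3 higher and 0 lower. Erythroid markers, 7 found, summed to 25920, 5170, 24170 and 8574 CPM, with 0 higher and 6 lower. Markers of liver and yolk sac, 11 found, summed to 434.8, 376.2, 2329 and 1161 CPM, and 11 of 11 were called higher in each donor comparison. Markers of neural progenitors and glia, 10 found, summed to 1697, 1426, 1627 and 1590 CPM, with 0 of 9 compared called with thalidomide against control. Of 14 genes for channel-associated and cytoskeletal proteins, 2 were higher and 0 lower with thalidomide (median 0.04). The part of these tissues in the members' ratios was not tested.

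The order of the 4 libraries was then read for each member without a threshold. Both libraries with thalidomide stood above both without it in 63 of 157 members (40.1%, all genes 33.2%), and by at least 2-fold in 14 (8.92%, all genes 4.16%). Among these 14 were KCNQ5, KCNH1, KCNH5, KCNA1, KCNB2, KCNK5, KCNK9, KCNK10, CACNA1C, CACNA2D1, GABRA6, GABRR3 and GLRA1, of which GABRA6 had only 39 reads in all. They stood below both others in 26 members (16.6%, all genes 32.6%), and by 2-fold in 4 (2.55%, all genes 1.46%), which were CACNG1, KCNMB4, KCNE3 and KCNK18. Both libraries with spermine NONOate stood above both without it in 36 members (22.9%, all genes 9.4%) and below in 6 (3.82%, all genes 7.9%).

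Thalidomide against control and the combination against spermine NONOate share no library, so their calls can be set against each other. Of 149 members compared in both, 15 were called higher in both, which is 44.1% of the 34 called in the first and 57.7% of the 26 called in the second; over all genes 5.04% of those compared were called higher in both, and the shares were 56% and 52.1%. They included KCNH7 and KCNK16 beside members named above, and not GABRA6. A call of lower in both was given to the 4 members named above, which is 28.6% of 14 and 50% of 8. Over all genes these shares were 31.5% and 38.1%, and 2.23% of the genes compared were lower in both. Across the 149 members the log2 ratios had a Pearson r of 0.623 and a Spearman rho of 0.589, against 0.656 and 0.682 across all genes; genes are not independent replicates, and no p-value was computed. The other pair without a shared library, spermine NONOate against control and the combination against thalidomide, had 146 members compared in both and gave GRIN1 as the 1 member called higher in both, 7.14% of 14 and 12.5% of 8. Over all genes these shares were 39.5% and 45.6%, above those of the members, and 1.63% of the genes compared were higher in both. Its Pearson r across members was -0.126, against 0.241 across all genes. The Spearman rho of this pair was -0.061 across members and -0.012 across all genes, so by rank neither rose together. The log2 ratios had the same sign in both comparisons for 80 of 146 members and for 5796 of 11947 genes.

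**Figure D5:**
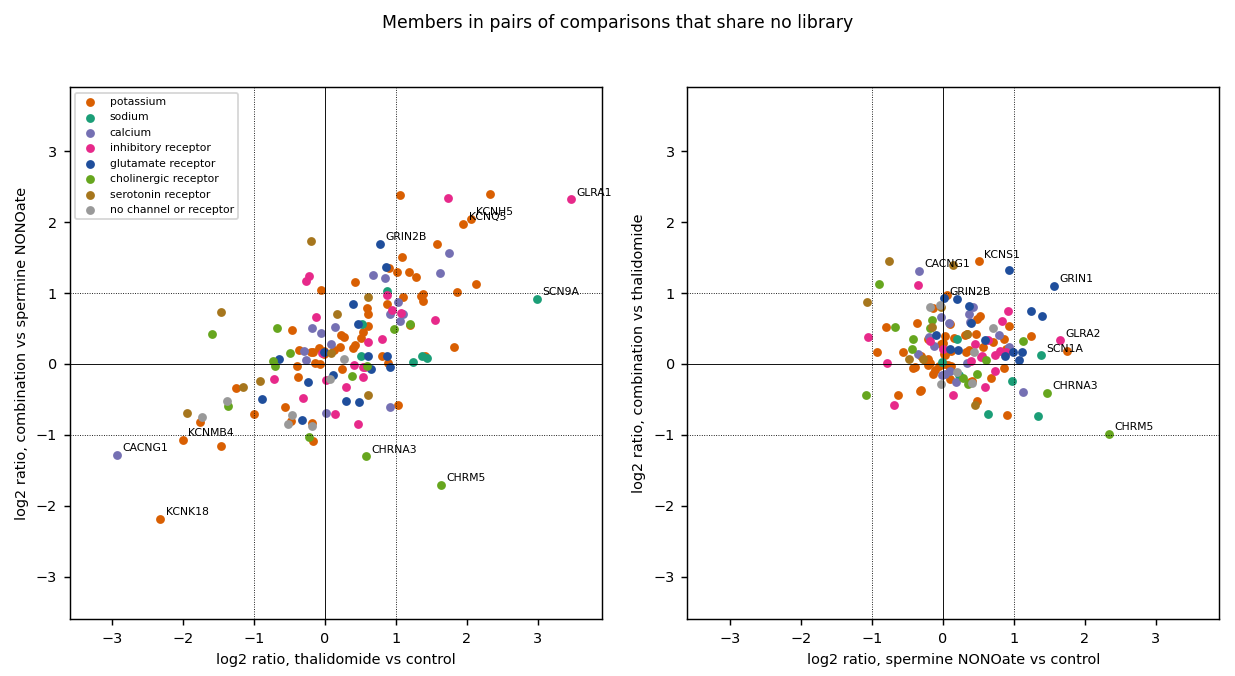
Log2 ratios of each member (points, coloured by class) in the pairs of comparisons that share no library: thalidomide against control and the combination against spermine NONOate (left, 149 members), and spermine NONOate against control and the combination against thalidomide (right, 146 members). Dotted lines mark 2-fold. The left cloud rises along the diagonal (Pearson r 0.623) and the right cloud does not (-0.126), with GRIN1 the only point beyond 2-fold and called higher on both right-hand axes.

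In the gene order of the RefSeq table, 39 members lay in 16 runs of neighbouring members, and neighbours did not always share an order of libraries. CHRNB4 and CHRNA3 were highest with the donor alone and their neighbour CHRNA5 was high with thalidomide. SCN9A and SCN1A were both called higher against control with either agent, with the highest level in the thalidomide library for SCN9A and in the combination for SCN1A. KCNA1 was called higher in both thalidomide comparisons, whereas KCNA5 beside it was called in none. GABRA4 was called higher with thalidomide (1.54), and GABRA2 and GABRG1, which follow it in the same run, were at 0.41 and 0.54 without a call. The sources used here do not say whether the deposited counting used strand, and reads of overlapping or antisense genes cannot be told apart.

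The authors' deposited table gives its own p-value for each comparison, also from 1 library per condition. Thalidomide against control had, at an unadjusted p under 0.05 in the authors' deposited table, 7 of 157 members higher (all genes 3.25%). The same comparison had 4 of 157 lower (all genes 1.72%) in the authors' deposited table. Among the 7 were KCNQ5, KCNH5, CACNA1C, CACNA2D1, SCN9A and GLRA1, and the 4 were CACNG1, KCNMB4, HTRA1 and HTRA3. In the combination against spermine NONOate the authors' deposited table had 8 of 157 members higher (all genes 3.13%). Among the 8 were KCNQ5, KCNH5, KCNK10, CACNA1C, GRIN2B and GLRA1. The same comparison had 0 members lower, where 217 of 13015 genes were lower. For spermine NONOate against control the authors' deposited table had 13 of 157 members higher (all genes 3.59%) and 0 lower (121 of 12963 genes). Glutamate receptor genes were 7 of the 13, among them GRIN1, GRIA2, GRIA4, GRIK1, GRIK2 and GRM3. The authors' deposited table had 10 of 157 members higher in the combination against thalidomide (all genes 3.01%), with 0 lower (199 of 13028 genes). The 10 included HTRA1 and HTRA3, which encode no channel or receptor subunit, beside GRIN1, GRIN2B, GRIA1, GRM7, KCNS1, CACNA1E, CACNG1 and GABRR2. In the combination against control the authors' deposited table had 13 of 157 higher (all genes 3.83%) and 1 lower (all genes 1.14%), CACNG1.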

How the data were processed

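RNA of whole chick embryos was sequenced in 4 libraries, 1 for each condition. Reads were aligned with TopHat2 2.0.8 to galGal4 and compared with DESeq, per the submitters' processing notes, and genes were those of Ensembl release 75, per the file headers. The authors deposited raw read counts per gene, with fold ratios, log2 ratios and p-values of their own comparisons; the counting tool is not given in the sources used here. Only genes of chromosomes 1 to 21 were analysed here. Deposited counts were scaled by TMM (edgeR 4.0.16, R 4.3.3). Ratios, exact intervals and calls were computed for all genes as described with the results, in 5 comparisons. The calling rule was tested on simulated counts with counting error alone, the error that its intervals cover. That test cannot show how often the rule calls differences between embryos. With 1 library per condition no count model was fitted. Total reads per library ran from 62576258 to 79359076, and the reads of each gene set the width of its interval.

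The members and the 17 gene lists were chosen with earlier results of these data known. Values in all 4 libraries were given for subunits called with 100 reads or more in their higher library (no more than 12 per comparison and direction), for the 2 members of each family with the most reads, for the members beside the minimum of 20 reads and for those 2-fold apart in both thalidomide libraries; further members were named after their values were seen, and a few that this rule takes are not reported here, though all counts include them. Gene order came from the RefSeq GRCg7b table, in which 155 of 157 members were found by symbol. The alternatives were other scalings, read minimums, folds and member filters. A planned split by protein length was not run, since no protein table was used here, and no sequences are printed.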

Additional observations from a re-analysis of the deposited data

Results flagged for a closer look

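CHRM5, a muscarinic acetylcholine receptor gene, went opposite ways under thalidomide without and with the donor: its log2 ratio was 1.63 for thalidomide against control and -1.70 for the combination against spermine NONOate, past 2-fold in both. It had 7, 22, 31 and 12 reads in the control, thalidomide, spermine NONOate and combination libraries. Each side is 1 library per condition, and the difference was not tested.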

How the results depend on the processing

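Of 178 values over the members recomputed under 10 alternatives, 149 were labelled the same, 29 moved and 0 reversed. A count was labelled the same where it lay within 1.5-fold of the reported count, a tolerance chosen here. A median was labelled the same within an interval taken over the members, which treats genes as independent. Only a median could be labelled reversed, and the fold alternatives leave the medians unchanged by construction. The 0 reversals are therefore no test of the counts. Of 280 ratios of single members, recomputed under the other scalings alone, 19 moved and 0 reversed. Only members called at 2-fold or more were recomputed singly. The scalings shifted the median gene by at most 0.2241 log2 units (total counts, combination against control). None of these ratios could therefore change side, and their 0 reversals are no test of direction. Scaled by total counts, members called lower numbered 4 in the combination against spermine NONOate (all genes 3.85%) and 2 with spermine NONOate against control (all genes 1.17%). With the same scaling 17 members had both thalidomide libraries below both others. With a minimum of 100 reads, 0 members were lower with spermine NONOate against control, 5 higher in the combination against thalidomide, 3 lower in the combination against control, and 3 had both donor libraries below both others. With members of at least 200 reads these 4 counts were 1, 5, 3 and 3. At 1.5-fold, calls of higher and lower were 46 and 24 in the combination against spermine NONOate, 40 and 10 with spermine NONOate against control, 28 and 2 in the combination against thalidomide, and 68 and 11 in the combination against control; 58 were higher with thalidomide against control. At 4-fold they were 5 and 3 with thalidomide against control, 5 and 1 in the combination against spermine NONOate, 1 and 0 with spermine NONOate against control, 5 and 0 in the combination against control, and 0 higher in the combination against thalidomide. The folds and read minimums define these counts by construction. Shares over all genes were not computed for the other folds, read minimums and member filters, nor for the order of libraries under total counts. Those counts are therefore no result about the members. For total counts the cause was not tested beyond the shift of the median gene given above. The fold alternatives and the removal of the minimum do not apply to the order of libraries. No paired analysis was possible because each condition has 1 library, and leaving out a library was not possible for the same reason. Members under about 100 reads have wide intervals, so a missing call there says little.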
